A study of Sus scrofa with 24 samples.

Results

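Adult and late-fetal muscle of 1 pig breed, German Landrace, were compared by their gene expression in longissimus dorsi, the long muscle of the back. Adult German Landrace muscle is set against muscle of German Landrace fetuses at 91 days post conception (dpc), late in gestation. Members were chosen by their labels: 3 RNA pools (a, b and c) of each group, 6 of the 24 arrays of the series, with every probe set except the manufacturer's controls. The other arrays hold German Landrace muscle at 35 and 63 dpc and Pietrain muscle at the same 4 stages, each with 3 pools. All were Affymetrix porcine genome arrays, and no treatment, allele or transgene is given for any group. The labels say that tissue was taken at slaughter. The sources used here do not give the number and sex of animals in a pool or the exact age of the adults, and p-values set each difference against the spread of the pools alone. A free-text label calls the donors peripubertal, for the adult and the fetal samples alike. For the fetal samples this goes against their titles and source names, and the titles and source names are followed here.

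Muscle fibres of the pig form before birth from dividing myoblasts, in a primary and a secondary wave, and carry fetal isoforms of several sarcomere proteins while they mature. After birth fibre number is largely set, and growth proceeds by protein accretion and by fusion of satellite cells, the stem cells of muscle. The fetus lives mainly on glucose and amino acids from the placenta, whereas adult longissimus, a muscle rich in fast fibres, stores glycogen, burns glucose and fat, and buffers sudden demand for ATP.

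Values are log2 intensities as deposited, and a log2 difference of 1 is a 2-fold change. Every deposited column holds the same sorted values, so each change is measured relative to the rest of the array, and a change in total mRNA cannot be seen. Transcripts that define skeletal muscle lay near the top of the scale, whose maximum is 16.099, in both groups. The muscle creatine kinase CKM had log2 values of 15.52, 15.65 and 15.57 in adult pools a, b and c, against 15.49, 15.33 and 15.51 in the 91 dpc pools. The fast myosin light chain MYL1 had 15.43, 15.45 and 15.45 in adults, against 15.62, 15.57 and 15.56 at 91 dpc. Over all probe sets, themselves no independent replicates, adult pools correlated with each other at 0.951 to 0.959 and 91 dpc pools at 0.972 to 0.984, whereas pools of different groups correlated at 0.848 to 0.867. Several technical measures moved with the group. The GAPDH 3′ minus 5′ difference, a sign of RNA integrity, was -0.41, -0.39 and -0.46 in adult pools, against 0.28, 0.25 and 1.16 at 91 dpc, where pool c stood apart. The same difference for actin was 2.33, 2.28 and 2.35 in adults, against 1.415, 1.412 and 2.99 at 91 dpc. By actin, 91 dpc pools a and b were thus lower than the adult pools and not higher. Only the GAPDH difference was used as a covariate. The 36 probe sets of the bacterial poly-A control transcripts were higher in adults by a median of 1.39 (range 0.27 to 2.25). For 35 of the 36, every adult pool lay above every 91 dpc pool. The sources used here do not give the amounts added, and no fit was scaled to these controls. Of 64 reporter-gene probe sets, which match no pig transcript, 7 were called higher in adults and 0 lower by limma, all 7 with means of at most 4.03. Likewise, 7698 probe sets with an adult mean under 4.5 and a 91 dpc mean under 3 held 514 higher calls and 30 lower ones. The part of these measures in the results below was not tested, other than by the alternatives given beside them.

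A large share of the transcriptome differed between adult and 91 dpc muscle. By limma with Benjamini-Hochberg adjustment over 23999 probe sets, 4346 (18.1%) were higher and 4100 (17.1%) lower in adults at an adjusted p below 0.05, and 3159 and 3299 of them changed at least 2-fold. Of 6765 genes with a symbol of their own, each represented by its brightest probe set, 1600 (23.7%) were higher and 1458 (21.6%) lower, and the adult and 91 dpc pools did not overlap for 4199 (62.1%). The median log2 change over these genes was 0.05, and the medians of the gene lists below were the same when genes at background in 1 group were set to their bound. Below, "rose" and "fell" are used of genes that passed this test in adults relative to 91 dpc, adjusted p-values are limma's, and values after ± are standard errors of the log2 change. With arrays scaled to the hybridisation controls, which moves the median change of all probe sets to -0.21, 3224 probe sets were higher and 5059 lower, so that rises made up 38.9% of the calls in place of 51.5%. Of the 4346 probe sets called higher in the main test, 2320 rose by more than the median change of the poly-A controls, 1.39.

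**Figure D1:**
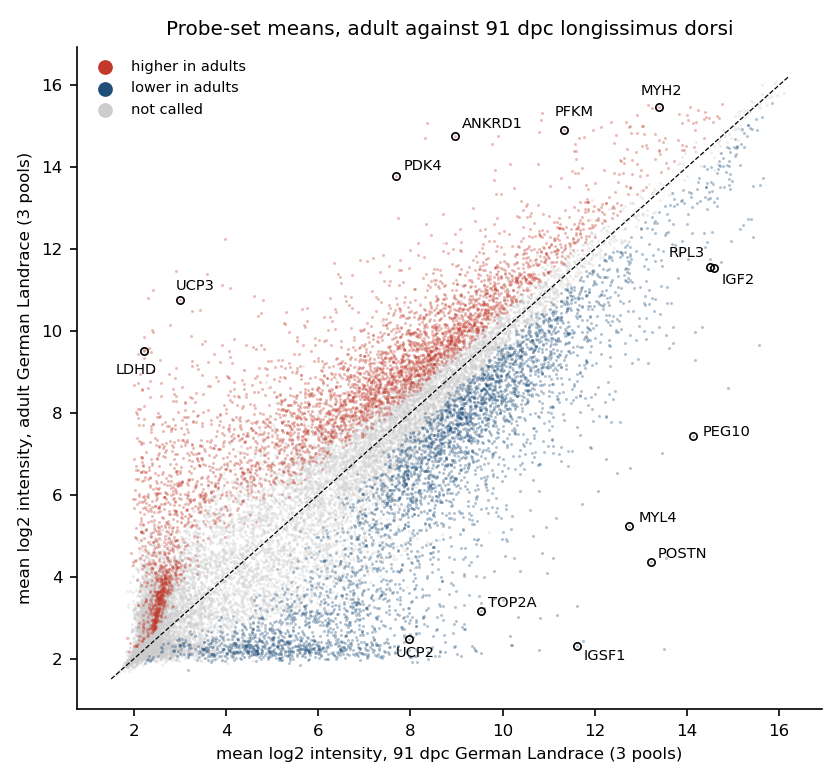
Mean log2 intensity of each of 23999 probe sets in the 3 adult pools (vertical axis) against the mean in the 3 pools at 91 dpc (horizontal axis). Red points were higher in adults by limma, blue points lower, grey points were not called, the dashed line marks equal means and circles mark named genes. UCP3 lies at 10.75 in adults and 3.002 at 91 dpc, and POSTN at 4.36 in adults and 13.21 at 91 dpc.

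The largest rises among genes measured on all 6 arrays included UCP3, PDK4, MRLN and ANKRD1. The largest rises, falls and bounds were taken from called genes whose groups did not overlap, so their lack of overlap was fixed by the choice. UCP3, a mitochondrial carrier of muscle linked to fatty acid use, had log2 values of 10.87, 10.86 and 10.52 in adult pools, against 2.47, 3.45 and 3.08 at 91 dpc. Every adult pool lay far above every fetal pool, and UCP3 rose by 7.75 ± 0.28, which is 215-fold (adjusted p = 0.000119). PDK4, the kinase that inhibits pyruvate dehydrogenase and so spares glucose, had 13.52, 14.71 and 13.12 in adults, against 7.65, 7.72 and 7.72 at 91 dpc. Adult pool b was the highest, the 91 dpc pools were nearly equal, and PDK4 rose by 6.09 ± 0.43 (adjusted p = 0.000629). MRLN, a micropeptide that restrains the calcium pump of the sarcoplasmic reticulum, had 9.30, 8.64 and 8.88 in adults, against 2.44, 3.37 and 2.42 at 91 dpc, and rose by 6.19 ± 0.33 (adjusted p = 0.00031). ANKRD1, a stretch-responsive ankyrin repeat protein, had 14.52, 15.12 and 14.64 in adults, against 9.55, 9.27 and 8.08 at 91 dpc, and rose by 5.80 ± 0.44 (adjusted p = 0.000761). The groups overlapped for neither gene. Other genes of this rank were BPGM, which makes 2,3-bisphosphoglycerate (6.26 ± 0.64), RRM2B, the ribonucleotide reductase subunit of non-dividing cells (5.83 ± 0.12), UCHL1, a ubiquitin hydrolase known from neurons (5.91 ± 0.29), ME1, the cytosolic malic enzyme (5.68 ± 0.57), AGT, angiotensinogen (5.39 ± 0.35), and SLC37A4, a glucose-6-phosphate transporter (5.31 ± 0.26). At 91 dpc the means of MRLN (2.75) and RRM2B (2.59) lay below the highest mean of the called reporter-gene probe sets, 2.91. The sizes of these 2 rises are therefore not exact.

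Other genes were measured in adults and were at background at 91 dpc, meaning at or below the brightest of 23 negative control probe sets on every 91 dpc array. Their change is a lower bound against that ceiling. LDHD, the mitochondrial D-lactate dehydrogenase, had log2 values of 9.69, 9.58 and 9.24 in adults, against 2.23, 2.13 and 2.25 at 91 dpc, and was at least 141-fold higher (adjusted p = 3.05e-05). CST6, a cystatin that inhibits cysteine proteases, was at least 133-fold higher, and SLC2A12, a glucose transporter, at least 48.5-fold. The membrane protein gene TMEM140 was at least 143-fold higher. Over all probe sets, 136 were above the ceiling in all adult pools and in no 91 dpc pool, against 850 that were above it in all 91 dpc pools and in no adult pool. Some genes named below with a fitted change were above the ceiling in only part of their lower group. That was 2 of 3 adult pools for TIE1, EZH2, PTN and VCAN, 1 of 3 for UCP2, MFAP2 and RRM2, 2 of 3 pools at 91 dpc for ALB, FOXO3, GBP1, GCLM, ITIH4, ADIPOQ and IGF1, and 1 of 3 for DIO3, GPX3, ISG15, NR4A3, TFRC and THRB. The sizes of the fitted changes of these genes are therefore not exact.

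The largest falls included POSTN, IGSF1 and the imprinted transcripts PEG10 and MEG3. POSTN, periostin, a matrix protein of growing connective tissue, had log2 values of 2.995, 4.89 and 5.18 in adults, against 13.09, 13.22 and 13.32 at 91 dpc. The 91 dpc pools were close together, adult pool a was the lowest, and POSTN fell by 8.86 ± 0.62, which is 463-fold (adjusted p = 0.000597). IGSF1, an immunoglobulin superfamily membrane protein, had 2.25, 2.34 and 2.33 in adults, against 11.60, 11.55 and 11.68 at 91 dpc. It was at background in every adult pool and at least 509-fold lower than at 91 dpc (adjusted p = 7.09e-06). PEG10, an imprinted gene derived from a retrotransposon, had 6.82, 8.40 and 7.07 in adults, against 14.14, 14.21 and 14.08 at 91 dpc (-6.72 ± 0.44, adjusted p = 0.000516). MEG3, an imprinted non-coding RNA, had 7.04, 5.76 and 7.16 in adults, against 13.13, 12.94 and 12.22 at 91 dpc (-6.11 ± 0.47, adjusted p = 0.000806). For both imprinted genes every adult pool was far below every 91 dpc pool. CDH11, a cadherin of mesenchymal cells, changed by -4.95 ± 0.83, and RGS2, a regulator of G-protein signalling, by -5.14 ± 0.90. Of the 3 probe sets of RGS2, 1 was called lower. These are bulk samples, so fewer cells of a type and less RNA per cell cannot be told apart.

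**Figure D2:**
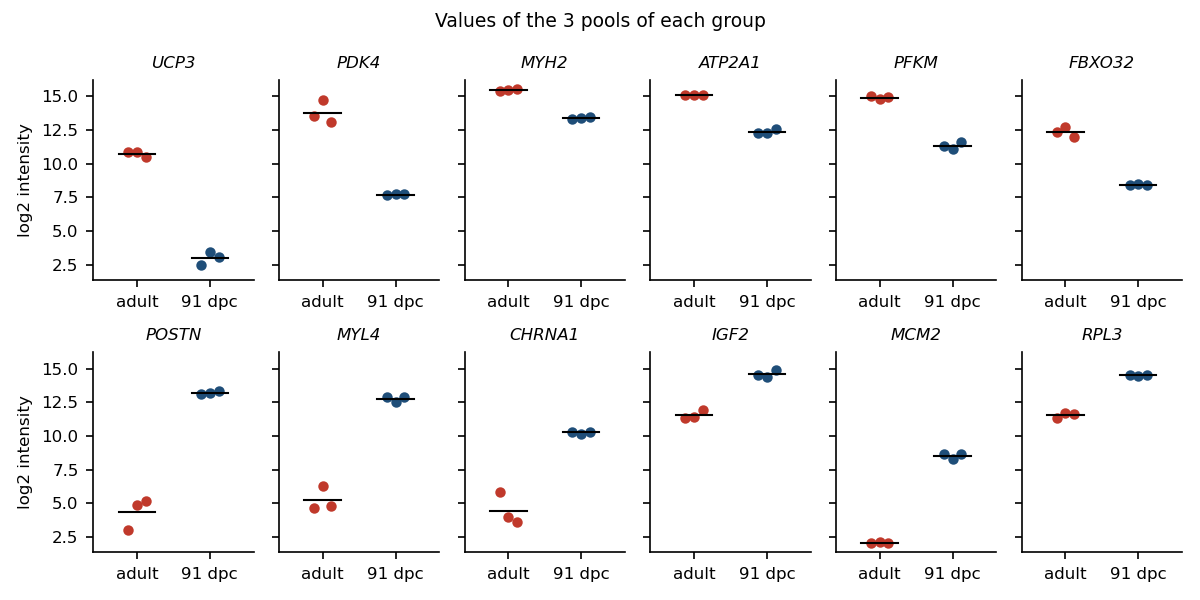
Log2 intensity of 12 genes in the 3 adult pools (red, left) and the 3 pools at 91 dpc (blue, right). Points are pools and bars are group means. Adult and 91 dpc pools overlap for none of the 12 genes, of which UCP3, PDK4, MYH2, ATP2A1, PFKM and FBXO32 were higher in adults and POSTN, MYL4, CHRNA1, IGF2, MCM2 and RPL3 lower.

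Genes for fetal isoforms of the contractile apparatus fell. Of 7 measured members of the fetal isoform and receptor list, 5 fell and 1 rose, with a median log2 change of -3.89. MYL4, the embryonic and atrial myosin light chain, had log2 values of 4.61, 6.28 and 4.82 in adults, against 12.90, 12.50 and 12.87 at 91 dpc, and fell by 7.52 ± 0.49 (adjusted p = 0.00049). TNNT2, cardiac troponin T, had 7.32, 8.07 and 7.01 in adults, against 11.86, 11.55 and 11.62 at 91 dpc (-4.21 ± 0.30, adjusted p = 0.00063). ACTC1, cardiac alpha-actin, had 10.94, 11.97 and 11.03 in adults, against 15.22, 15.19 and 15.21 at 91 dpc (-3.89 ± 0.30, adjusted p = 0.000817). For all 3 genes the groups lay far apart and pool b was the highest of the adult pools. CHRNA1, the alpha subunit of the muscle acetylcholine receptor, had 5.80, 3.95 and 3.59 in adults, against 10.28, 10.17 and 10.31 at 91 dpc (-5.81 ± 0.61, adjusted p = 0.00208), and pool a was its highest adult pool. The member that rose was TNNI1, slow troponin I (0.92 ± 0.09), and the cell adhesion gene NCAM1 did not pass (-2.14 ± 0.75, adjusted p = 0.0858).

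Fast-fibre genes were already abundant at 91 dpc and changed less. Of 9 measured, 3 rose and 1 fell (median 0.22, and -0.03 when scaled to the hybridisation controls). Calls thus made up 44.4% of the list, near the 45.2% over all genes. MYH2, the fast IIa myosin heavy chain, had 15.39, 15.44 and 15.54 in adults, against 13.29, 13.43 and 13.48 at 91 dpc, and rose by 2.06 ± 0.09 (adjusted p = 0.000183). ATP2A1, the calcium pump of fast fibres, had 15.12, 15.08 and 15.10 in adults, against 12.25, 12.27 and 12.56 at 91 dpc, and rose by 2.74 ± 0.11 (adjusted p = 0.000152). Pools within each group were close together for both genes. MYL1 (-0.14 ± 0.07) and the fast troponin TNNT3 (0.23 ± 0.09) did not pass, and the change of TNNT3 was -0.03 when scaled to the hybridisation controls. With a trended and robust prior 6 fast-fibre genes rose, and the 1 fall was lost when any 1 pool was left out. How far values near the top of the scale can separate was not tested. Of 11 slow-fibre genes, 7 rose and 2 fell (median 0.80), and 1 fell without 91 dpc pool a or b, without adult pool a or c, or with pool letter as a replicate block. MYL3, the slow and ventricular myosin light chain, rose by 2.96 ± 0.11, TNNT1, slow troponin T, by 1.49 ± 0.08, and MYH7, the slow myosin heavy chain, by 0.78 ± 0.10.

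Structural proteins of the sarcomere and Z-disc rose in most cases, 19 of 30 with 0 falls (median 1.06). XIRP1, an actin-binding repair protein, rose by 4.797 ± 0.25, the LIM-domain proteins FHL3 and PDLIM3 by 3.48 ± 0.23 and 3.06 ± 0.23, and TMOD4, which caps thin filaments, by 2.99 ± 0.11. Nebulin, NEB, which spans the thin filament, rose by 0.73 ± 0.08. Of 12 calcium-handling genes, 9 rose and 1 fell (median 1.14). Besides MRLN, the calcineurin regulator RCAN1 rose by 1.66 ± 0.30 and BIN1, which shapes T-tubules, by 1.36 ± 0.14, whereas the calcium-binding protein sorcin, SRI, changed by -2.39 ± 0.23. Scaled to the hybridisation controls, 6 calcium-handling genes rose. In the dystrophin complex and membrane attachment list, 2 of 11 rose and 6 fell, among them the integrin ITGB1 (-1.47 ± 0.14) and talin, TLN1 (-1.29 ± 0.18). The rises in that list numbered 1 without 91 dpc pool a or c, without adult pool a, with the replicate block or with the GAPDH 3′ minus 5′ difference as a covariate, and 0 when scaled to the hybridisation controls. In the Z-disc list 1 gene fell without adult pool b or when so scaled.

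**Figure D3:**
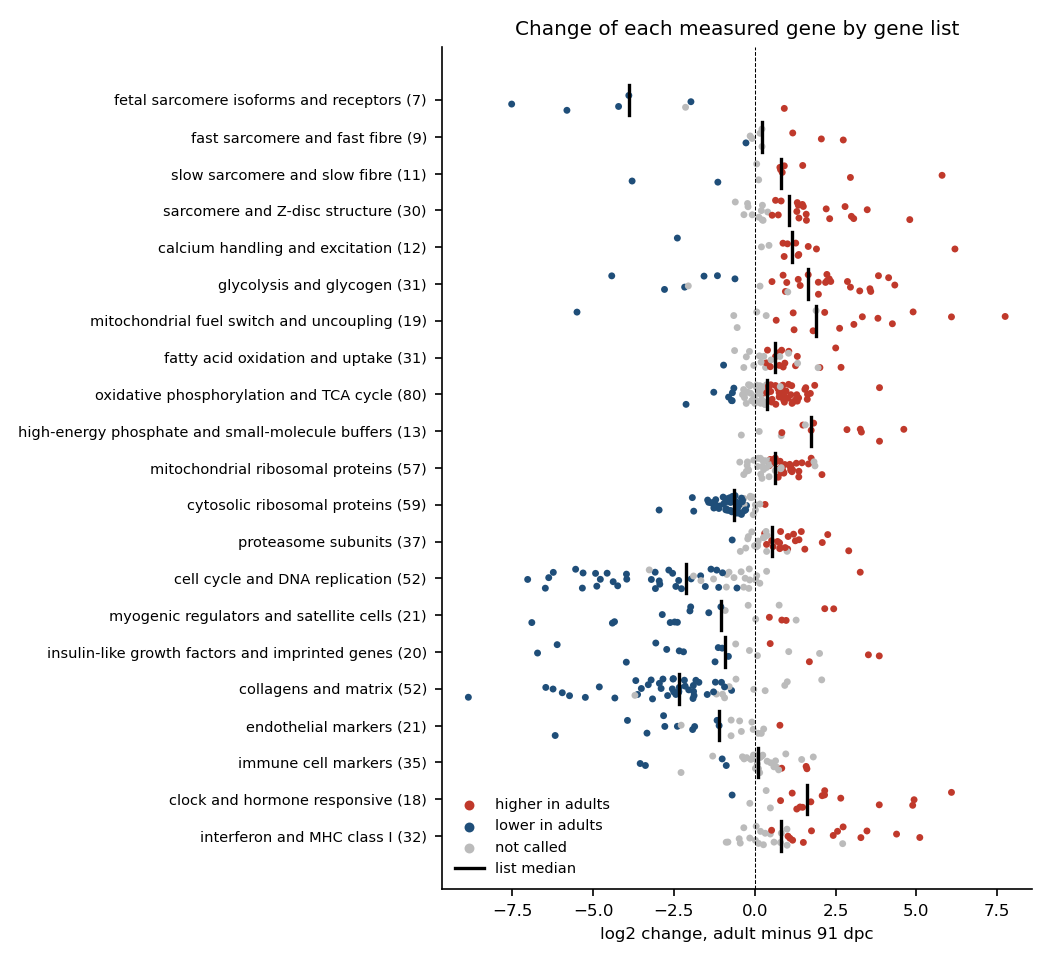
Log2 change (adult minus 91 dpc, horizontal axis) of each measured gene in 21 gene lists, with the number of genes in brackets. Points are limma's fitted changes of genes (red, higher in adults by limma; blue, lower; grey, not called) and black bars are list medians, which run from -3.89 for fetal sarcomere isoforms to 1.90 for the mitochondrial fuel switch, beside 0.05 over all genes.

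Genes of glucose and glycogen metabolism were mostly higher in adults, with 22 of 31 genes rising, 6 falling and a median of 1.66. PFKM, the muscle phosphofructokinase that gates glycolysis, had log2 values of 14.999, 14.78 and 14.92 in adults, against 11.31, 11.06 and 11.64 at 91 dpc, and rose by 3.56 ± 0.17 (adjusted p = 0.000232). SLC2A4, the insulin-responsive glucose transporter GLUT4, had 8.68, 8.77 and 8.09 in adults, against 5.67, 4.09 and 4.29 at 91 dpc, and rose by 3.83 ± 0.48 (adjusted p = 0.00364). The groups did not overlap for either gene, and 91 dpc pool a had the highest fetal SLC2A4 value. PYGM, muscle glycogen phosphorylase, rose by 2.19 ± 0.16, FBP2, the muscle fructose bisphosphatase, by 4.14 ± 0.20, and PPP1R1A, an inhibitor of the phosphatase that acts on glycogen enzymes, by 4.33 ± 0.16. GAPDH itself did not pass (0.17 ± 0.08, adjusted p = 0.161).

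The 6 falls in that list were PFKP, PFKL, SLC2A3, HK1, ENO1 and LDHB, and related genes of several families moved in opposite directions. PFKL, SLC2A3, HK1, ENO3, ENO1, LDHA, COX7A2 and RRM2 were chosen after their values were seen, so the contrast within a family is a description. PFKP, the platelet phosphofructokinase, was at background in adults and at least 16.9-fold lower, and PFKL, the liver form, changed by -2.17 ± 0.30, whereas PFKM rose. SLC2A3, the glucose transporter GLUT3, changed by -2.79 ± 0.49, and HK1, the widely expressed hexokinase, by -1.57 ± 0.17. ENO3, the muscle enolase, rose by 0.95 ± 0.11 while the widely expressed ENO1 changed by -1.15 ± 0.11. LDHA, the lactate dehydrogenase subunit of fast muscle, rose by 2.35 ± 0.11, and LDHB, the heart subunit, changed by -0.61 ± 0.17 (adjusted p = 0.0486). Without 91 dpc pool a, b or c, or adult pool a or c, LDHB did not pass (adjusted p = 0.0853 to 0.14), nor with pool letter as a replicate block (0.0788). UCP2, the uncoupling protein of many tissues, had 2.36, 2.36 and 2.73 in adults, against 8.06, 7.84 and 8.03 at 91 dpc, and fell by 5.496 ± 0.14 (adjusted p = 5.32e-05). All adult pools were low and all fetal pools high. In the respiratory chain COX7A2, the ubiquitous form of a cytochrome oxidase subunit, changed by -1.27 ± 0.07, and COX7A1, the heart and muscle form, by 1.30 ± 0.21. COX7A1 did not pass with the GAPDH 3′ minus 5′ difference as a covariate over 24 arrays (adjusted p = 0.188). The ribonucleotide reductase subunit of dividing cells, RRM2, changed by -4.88 ± 0.28, against 5.83 ± 0.12 for RRM2B.

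**Figure D4:**
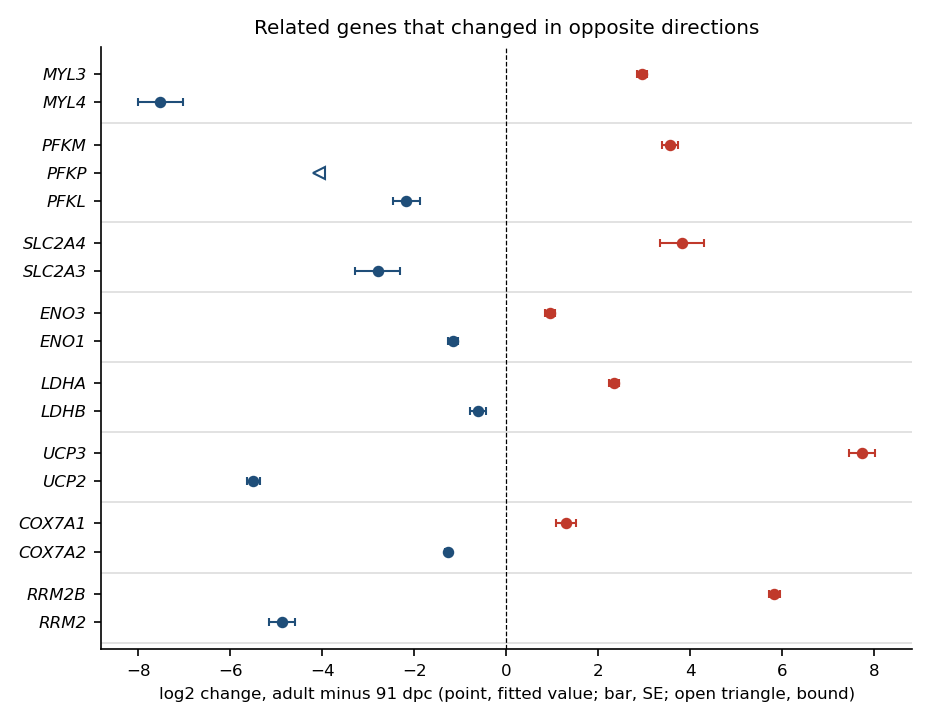
Log2 change (adult minus 91 dpc) of 17 genes in 8 families whose members changed in opposite directions. Points are limma's fitted values and bars standard errors, and the open triangle marks PFKP, at background in adults, at its lower bound of 16.9-fold. UCP2 and RRM2 were above background in 1 of 3 adult pools, so their points are not exact. Red members (MYL3, PFKM, SLC2A4, ENO3, LDHA, UCP3, COX7A1 and RRM2B) were higher in adults and blue members lower.

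Mitochondrial and fat-fuel genes rose more often than they fell, though in part by modest amounts. Of 19 genes of the mitochondrial fuel switch, 13 rose and 1 fell, the fall being UCP2 (median 1.90). PRKAB2 and PRKAG3, the beta-2 and gamma-3 subunits of the energy sensor AMPK, rose by 4.90 ± 0.32 and 3.33 ± 0.43, and the transcription factor FOXO3 by 4.26 ± 0.53. PPARGC1A, a coactivator of mitochondrial biogenesis, had 10.26, 11.86 and 9.44 in adults, against 8.57, 8.98 and 8.30 at 91 dpc, and did not pass (1.90 ± 0.66, adjusted p = 0.0845). Every adult pool was above every 91 dpc pool, but adult pool b was far above the other adults. Of 31 genes that take up or oxidise fatty acids, 15 rose and 1 fell (median 0.64), led by ACADS, the short-chain acyl-CoA dehydrogenase (2.67 ± 0.09), CRAT, carnitine acetyltransferase (2.51 ± 0.22), and ECH1, a dienoyl-CoA isomerase (2.02 ± 0.21). In oxidative phosphorylation and the TCA cycle, 39 of 80 rose and 7 fell (median 0.37), with COX6A1, the liver-type cytochrome oxidase subunit, the largest fall (-2.12 ± 0.11) and SUCLA2, a succinyl-CoA ligase subunit, among the rises (1.86 ± 0.19). With the GAPDH covariate the fatty acid list had 6 rises and the oxidative list 24, and scaled to hybridisation controls they had 5 and 22. The 1 fall of the fatty acid list was lost without 91 dpc pool b or adult pool b or c.

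High-energy phosphate and buffer genes gave 9 rises and 0 falls among 13 (median 1.75). GAMT, which makes creatine, rose by 4.61 ± 0.23, the creatine transporter SLC6A8 by 2.85 ± 0.11, mitochondrial creatine kinase CKMT2 by 3.86 ± 0.20, and CA3, the carbonic anhydrase of slow muscle, by 1.49 ± 0.17. CKM itself (0.14 ± 0.09) did not pass, and its change was -0.12 when scaled to the hybridisation controls.

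Genes of cell division were lower in adults: 33 of 52 fell, 1 rose, and the median was -2.12. In adults 12 of the 52 were at background on every array, against 1 at 91 dpc. TOP2A, the topoisomerase of dividing cells, had log2 values of 2.91, 3.23 and 3.33 in adults, against 9.43, 9.23 and 9.93 at 91 dpc, and fell by 6.37 ± 0.23 (adjusted p = 0.000115). MCM2, a subunit of the replicative helicase, had 2.02, 2.14 and 2.02 in adults, against 8.63, 8.32 and 8.66 at 91 dpc, at least 60.4-fold lower (adjusted p = 2.97e-05). Both genes were low in all adult pools and well above background in all fetal ones. The adult mean of TOP2A, 3.16, lay below the highest adult mean of the called reporter-gene probe sets, 4.03, so the size of its fall is not exact. UBE2C, a ubiquitin-conjugating enzyme of mitosis, was at least 54.1-fold lower, and CDC20, an activator of the anaphase-promoting complex, at least 33-fold. The exception was CDKN2C, an inhibitor of cyclin-dependent kinases (3.26 ± 0.85), which was chosen after its value was seen. It did not pass without 91 dpc pool a or c or adult pool a or c (adjusted p = 0.1 to 0.116), with the replicate block (0.131) or with the GAPDH covariate (0.46), and without adult pool b 2 genes of the list rose. Of 10 growth-related chromatin and RNA-binding genes, 5 fell and 0 rose, with EZH2, a histone methyltransferase, at -4.96 ± 0.32. In this list 1 gene rose without 91 dpc pool c or with the GAPDH covariate.

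Regulators of myogenesis and satellite cells fell more often than they rose, 11 against 5 of 21 (median -1.05). CALCR, the calcitonin receptor of quiescent satellite cells in mice, had 2.16, 2.12 and 2.06 in adults, against 9.01, 8.91 and 9.10 at 91 dpc, at least 83.7-fold lower (adjusted p = 1.09e-05). All adult pools were at background and all fetal pools were far above it. MYF5 and MYOD1, the transcription factors that commit and activate myoblasts, changed by -4.40 ± 0.41 and -2.61 ± 0.16, and MSTN, myostatin, an inhibitor of muscle growth, by -2.48 ± 0.39. MYF6, the myogenic factor of mature fibres, rose by 2.44 ± 0.39. The rises numbered 3 when scaled to the hybridisation controls and 2 with the GAPDH covariate.

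Insulin-like growth factor and imprinted genes followed the same pattern, with 11 falls and 4 rises among 20 (median -0.91). IGF2, the fetal growth factor, had 11.30, 11.38 and 11.94 in adults, against 14.55, 14.38 and 14.87 at 91 dpc, and fell by 3.06 ± 0.23 (adjusted p = 0.000742). Adult pool c was the highest adult value and still lay below all fetal pools. PLAGL1, an imprinted zinc-finger factor, changed by -3.97 ± 0.21. In the opposite direction GRB10, an adaptor that damps insulin signalling, rose by 3.52 ± 0.14 and DIO3, the deiodinase that inactivates thyroid hormone, by 3.85 ± 0.46. IGF1 did not pass (2.01 ± 0.58, adjusted p = 0.0515), and the mean over all its probe sets was -0.39. Among growth signalling genes, 10 of 29 fell and 5 rose. The heparin-binding growth factors PTN and MDK changed by -5.71 ± 0.73 and -4.73 ± 0.15, TGFB3 by -3.36 ± 0.46, and SMAD3, a mediator of TGF-beta signals, rose by 3.10 ± 0.44. With the GAPDH covariate 2 genes of the growth factor and imprinted list and 3 of the signalling list rose, the second count being the same with the replicate block.

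Connective tissue genes were lower in adults, 41 of 52 with 0 rises (median -2.34). Besides POSTN, the microfibril protein MFAP2 changed by -6.46 ± 0.49, the proteoglycan versican, VCAN, by -6.24 ± 0.88, and asporin, ASPN, by -5.95 ± 0.29. COL1A2, a chain of type I collagen, had log2 values of 7.65, 7.44 and 8.29 in adults, against 12.08, 11.82 and 9.10 at 91 dpc. Pool c of 91 dpc, the pool with the high GAPDH 3′ minus 5′ difference, was well below the other fetal pools for this gene. COL1A2 fell by 3.20 ± 0.88 (adjusted p = 0.0435), but did not pass when any 1 of the other pools was left out (adjusted p = 0.0833 to 0.127). It did not pass with the replicate block either (0.109) or with array weights (0.0532). COL3A1, of type III collagen, had 5.31, 5.19 and 5.84 in adults, against 4.71, 5.75 and 2.85 at 91 dpc. It did not pass (1.01 ± 0.78, adjusted p = 0.384), and its change was -1.13 with the GAPDH covariate. Its 91 dpc values were far below those of COL1A2, with pool c near background, so this result says little of type III collagen. Of 11 fibroblast and tendon progenitor markers, 5 fell and 1 rose, with vimentin, VIM, at -2.14 ± 0.09 and TWIST2, a mesenchymal transcription factor that was at background in all adult pools, at least 5.09-fold lower. Without adult pool b, 1 of the matrix genes rose.

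Genes of protein synthesis and breakdown moved in different directions by compartment. Of 59 cytosolic ribosomal protein genes, 47 fell and 1 rose (median -0.65), whereas of 57 mitochondrial ribosomal protein genes 30 rose and 0 fell (median 0.64). RPL3, of the large cytosolic subunit, had 11.37, 11.68 and 11.60 in adults, against 14.52, 14.46 and 14.54 at 91 dpc, and fell by 2.96 ± 0.11 (adjusted p = 0.000119), with tight pools in both groups. MRPS9, of the small mitochondrial subunit, rose by 2.08 ± 0.16. Of 30 translation factors 7 rose, near the share of all genes that rose (23.7%), and 11 fell. However, 3 rose without 91 dpc pool a or b or when scaled to the hybridisation controls, and 4 rose without 91 dpc pool c, without adult pool a or with the replicate block. With that block 7 fell. PABPC1, the poly-A binding protein, changed by -2.25 ± 0.11. Of 9 genes of polyamine metabolism 1 rose and 3 fell, 44.4% of the list, near the 45.2% called over all genes. With the GAPDH covariate 12 mitochondrial ribosomal genes rose and 2 fell, and scaled to the hybridisation controls 15 rose and 1 fell. Without adult pool a 19 of them rose, without 91 dpc pool c 1 fell, and the 1 rise among cytosolic ribosomal genes was lost when any 1 pool was left out. Of 37 proteasome genes 20 rose and 1 fell (median 0.52), with PSMD4, a ubiquitin receptor of the proteasome, at 2.91 ± 0.11. The rises numbered 12 with the GAPDH covariate or scaled to the hybridisation controls, and the 1 fall was lost without 91 dpc pool a or adult pool a and with the replicate block. FBXO32, the muscle ubiquitin ligase atrogin-1, had 12.33, 12.69 and 12.01 in adults, against 8.42, 8.49 and 8.40 at 91 dpc, and rose by 3.90 ± 0.19 (adjusted p = 0.000237). The adult and fetal values were far apart. CAPN3, the muscle calpain, rose by 2.52 ± 0.25, as did SQSTM1, an autophagy receptor, by 2.51 ± 0.09. Of the whole degradation and autophagy list, 15 of 32 rose and 5 fell, the falls numbering 3 without 91 dpc pool b, without adult pool b or with the GAPDH covariate.

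Markers of other cell types show what else the samples could hold. Of 21 endothelial markers, 10 fell and 1 rose (median -1.10), and the log2 of their summed signal was 12.48 to 12.76 in adult pools, against 13.70 to 13.84 at 91 dpc. TIE1, an endothelial receptor, had 1.92, 2.95 and 2.83 in adults, against 8.86, 8.53 and 8.83 at 91 dpc, and fell by 6.17 ± 0.31 (adjusted p = 0.000265). Pool a was the lowest adult pool, and all fetal pools lay far above. CLDN5, an endothelial tight junction protein, changed by -3.33 ± 0.52. CD93, a receptor of endothelial and myeloid cells that is not in the list, went the other way, with 9.18, 8.56 and 9.03 in adults, against 3.08, 3.19 and 4.17 at 91 dpc. By this probe set, whose groups did not overlap, CD93 rose by 5.44 ± 0.36, which is 43.5-fold (adjusted p = 0.000505). Of the 2 probe sets of CD93, 1 was called higher. The 1 rise within the list was lost when any 1 pool but 91 dpc pool c was left out. Of 14 smooth muscle and pericyte markers 8 fell and 0 rose, with summed signals of 16.17 to 16.37 in adults, against 16.44 to 16.55 at 91 dpc. Adipocyte and lipid storage genes rose in 11 of 24 cases and fell in 3, with sums of 14.65 to 14.85 in adults, against 12.65 to 12.79 at 91 dpc. With the GAPDH covariate 6 of them rose. The falls numbered 0 without 91 dpc pool a, and 1 without 91 dpc pool b, without adult pool a, b or c or with the replicate block. SCD, the stearoyl-CoA desaturase, rose by 2.69 ± 0.16, and PLIN2, a lipid droplet coat protein, by 2.58 ± 0.45. The adipocyte hormone gene ADIPOQ (1.01 ± 0.79) did not pass. The part of changed cell mixtures in the other results was not tested.

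Most immune markers did not pass: 3 of 35 rose, 4 fell, and 8 were at background on all 6 arrays. Their summed signal was 12.72 to 12.96 in adults, against 12.77 to 13.22 at 91 dpc, ranges that overlap, and 2 fell without 91 dpc pool a or b and 1 rose with the GAPDH covariate. CCL21, a chemokine of lymphatic vessels, changed by -3.54 ± 0.54. Calls made up 42.9% of the 7 erythroid and globin genes, near the 45.2% over all genes. Of these 7 genes, 1 rose and 2 fell, or 1 without 91 dpc pool a, b or c, without adult pool a or with the replicate block. They had summed signals of 8.29 to 9.20 in adults, against 9.96 to 10.18 at 91 dpc, and ALAS2, which starts haem synthesis in red cell precursors, was at least 64.7-fold lower in adults, whereas the transferrin receptor TFRC rose by 5.33 ± 0.32. In the liver and plasma protein list 5 of 21 rose and 1 fell, where 23.7% of all genes rose and 21.6% fell. The share of rises in this list was thus near that over all genes. ITIH4, a plasma protein made mainly by liver, had 9.77, 10.41 and 10.23 in adults, against 2.09, 2.36 and 3.87 at 91 dpc, and rose by 7.36 ± 0.53 (adjusted p = 0.000639). All adult pools were far above all fetal pools, of which pool c was the highest. ALB, albumin, had 9.97, 8.07 and 9.22 in adults, against 2.84, 2.16 and 3.75 at 91 dpc (6.17 ± 0.64, adjusted p = 0.00199), and did not pass with the GAPDH covariate (adjusted p = 0.131), where the list had 1 rise. Summed signals of this list were 11.40 to 12.17 in adults, against 11.84 to 11.90 at 91 dpc, where the adult range spans the fetal one, and 2 of the list fell without 91 dpc pool c. Of 14 neural and Schwann cell markers UCHL1 was the gene that rose and 0 fell, with sums of 9.59 to 10.21 in adults, against 8.61 to 9.16 at 91 dpc. Of 11 cartilage and bone markers 0 rose and 4 fell, with sums of 6.51 to 8.23 in adults, against 11.28 to 11.60 at 91 dpc, and 1 fell with the GAPDH covariate and 2 with the replicate block. Of 11 epithelial and skin markers 1 rose, with sums of 9.46 to 9.98 in adults, against 7.98 to 8.44 at 91 dpc. Without adult pool a 2 neural markers rose, without adult pool b 1 cartilage marker rose and 1 epithelial marker fell, and without adult pool c 2 epithelial markers rose.

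Genes that answer to hormones and the clock were mostly higher in adults, 14 of 18 against 1 lower (median 1.61). THRB, a thyroid hormone receptor, rose by 4.93 ± 0.13 (adjusted p = 5.42e-05) and FKBP5, a glucocorticoid-induced chaperone, by 4.89 ± 0.40 (adjusted p = 0.000999). The 1 fall was lost when any 1 pool but adult pool b was left out. Of 42 immediate early and heat shock genes 19 rose and 7 fell, or 4 with the replicate block. NR4A3, an orphan nuclear receptor induced by exercise, rose by 7.28 ± 0.82, ATF3, a stress-induced transcription factor, by 4.27 ± 0.29, and the small heat shock protein HSPB7 by 3.99 ± 0.35. The sources used here do not give the hour of sampling. Interferon and MHC class I genes gave 13 rises and 0 falls among 32 (median 0.81), with GBP1 at 5.11 ± 0.25 and ISG15 at 4.39 ± 0.43, and 6 rises with the GAPDH covariate. Of 33 antioxidant genes 16 rose and 5 fell, or 8 with all 24 arrays in 1 fit. The secreted glutathione peroxidase GPX3 rose by 6.72 ± 0.28 and the glutathione-synthesis subunit GCLM by 4.78 ± 0.59, whereas GSTM3, a glutathione transferase, was at least 39.4-fold lower.

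The German Landrace pools at 35 and 63 dpc show where the 91 dpc values stand in development. These levels are given with standard deviations over 3 pools and no test. The fetal isoform MYL4 averaged 14.21 ± 0.05 at 35 dpc, 14.80 ± 0.01 at 63 dpc, 12.76 ± 0.22 at 91 dpc and 5.24 ± 0.91 in adults. MYH2 averaged 5.08 ± 0.51 at 35 dpc, 8.92 ± 0.02 at 63 dpc, 13.40 ± 0.10 at 91 dpc and 15.46 ± 0.08 in adults. UCP3 stayed low before birth, at 2.15 ± 0.07 at 35 dpc, 3.27 ± 0.80 at 63 dpc, 3.002 ± 0.49 at 91 dpc and 10.75 ± 0.20 in adults. POSTN was high at all fetal stages, at 14.42 ± 0.02 at 35 dpc, 13.86 ± 0.16 at 63 dpc, 13.21 ± 0.12 at 91 dpc and 4.36 ± 1.19 in adults. Some genes peaked late in gestation, so that the adult value lay near or below that at 35 dpc. CALCR averaged 5.22 ± 0.29 at 35 dpc, 6.59 ± 0.31 at 63 dpc, 9.01 ± 0.09 at 91 dpc and 2.11 ± 0.05 in adults, and TIE1 2.47 ± 0.48 at 35 dpc, 6.76 ± 0.28 at 63 dpc, 8.74 ± 0.18 at 91 dpc and 2.57 ± 0.57 in adults. MRLN took the opposite course, at 8.06 ± 0.06 at 35 dpc, 8.04 ± 0.09 at 63 dpc, 2.75 ± 0.55 at 91 dpc and 8.94 ± 0.33 in adults, so its low value at 91 dpc was not shared by the earlier fetal stages. FKBP5 likewise averaged 8.24 ± 0.08 at 35 dpc, 6.52 ± 0.45 at 63 dpc, 4.76 ± 0.67 at 91 dpc and 9.65 ± 0.40 in adults.

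**Figure D5:**
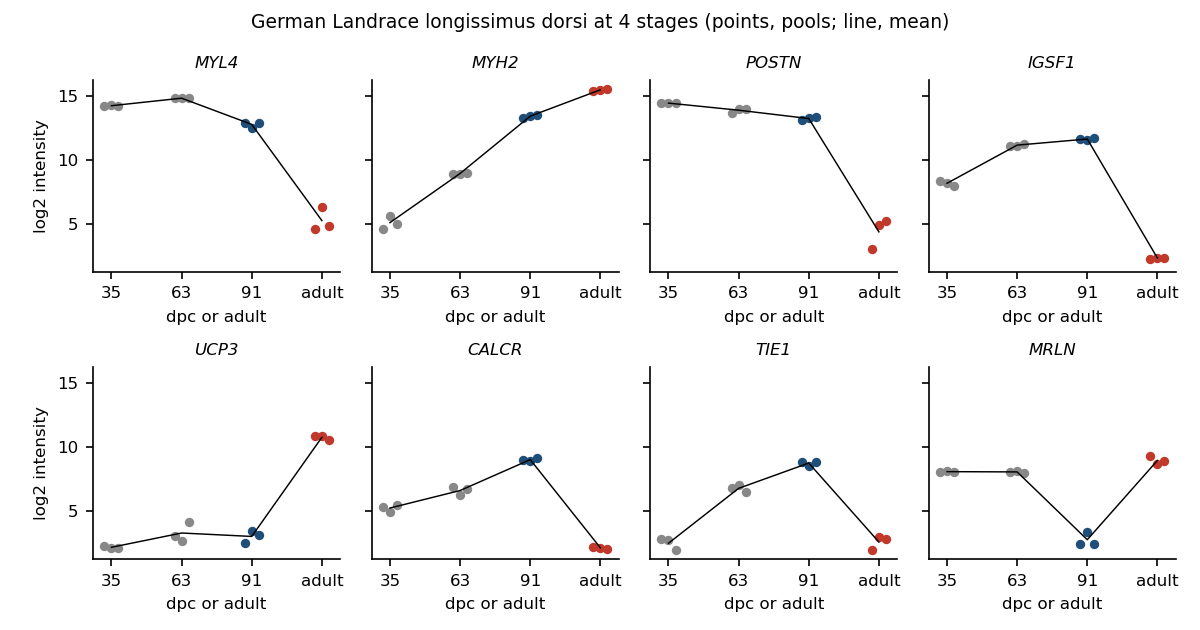
Log2 intensity of 8 genes in German Landrace longissimus dorsi at 35, 63 and 91 dpc and in adults. Points are pools (grey, 35 and 63 dpc; blue, 91 dpc; red, adult) and lines join stage means. MYH2 was higher at each later stage, UCP3 was high in adults alone, and MRLN was lowest at 91 dpc.

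The same comparison in Pietrain, a lean and heavily muscled breed, shares no array with that in German Landrace. There, 8642 probe sets passed, and 6034 passed in the same direction in both breeds, which is 71.4% of the German Landrace calls and 69.8% of the Pietrain calls, while 12 passed in opposite directions. The difference between the breeds' changes, tested as an interaction in limma on 12 arrays, passed for 80 probe sets (0.333%). Among them were the representative probe sets of 18 genes. With pool letter as a replicate block 1 probe set passed, and with 1 of the 12 pools left out 37 to 151 passed. Among the 18 genes was EIF1AY, a gene of the Y chromosome. It averaged 7.48 in German Landrace adults, against 8.59 at 91 dpc, and 2.95 in Pietrain adults, against 8.48 at 91 dpc. Its difference in change was 4.42 ± 0.52 (adjusted p = 0.0138). The sex of the animals is not given here, and its part in the breed difference was not tested. MYBL2, a transcription factor of the cell cycle, had log2 values of 1.96, 2.26 and 1.98 in German Landrace adults, against 9.11, 8.77 and 9.39 at 91 dpc, and was at background in those adults. In Pietrain it had 5.45, 5.76 and 5.15 in adults, against 8.93, 9.17 and 8.89 at 91 dpc. The German Landrace fall is a lower bound (88.7-fold), so the fitted difference in change, -3.48 ± 0.28 (adjusted p = 0.00285), has no exact size. KDR, an endothelial receptor for vascular growth factor, had 2.19, 2.22 and 2.12 in German Landrace adults, against 6.02, 6.74 and 5.59 at 91 dpc, and 2.21, 2.20 and 2.19 in Pietrain adults, against 4.03, 3.11 and 3.14 at 91 dpc. Adults of both breeds were at background in every pool, and the 91 dpc pools of German Landrace were the higher ones. Both falls are therefore lower bounds, and the fitted difference in change, -2.71 ± 0.43 (adjusted p = 0.044), does not measure how far the falls differ.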

How the data were processed

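Biotin-labelled cRNA was made from total RNA (TRI Reagent, DNase I, RNeasy) per the labels' protocols. The deposited values are log2 intensities that the authors made with software listed as GCOS 1.1.1 in the submitters' processing notes. The sources used here do not give the summarisation and background methods. All columns hold the same sorted values, as after quantile normalisation, and the log base was taken as 2 from their range (1.60 to 16.099). The 124 control probe sets were left out.

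Group means over 6 arrays were fitted with limma 3.58.1 (R 4.3.3, eBayes, 4 residual degrees of freedom), with Benjamini-Hochberg adjustment over 23999 probe sets. Breeds were compared by an interaction on 12 arrays. Platform annotation gave 10069 probe sets 1 symbol, 198 several and 13732 none. A gene was represented by the probe set brightest on average in these 6 arrays. Of 2261 genes with several probe sets, 58 had probe sets called in both directions. Arrays have no read depth, and the number of pools limits precision.

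Members and gene lists were chosen with earlier results of these data known. Genes named were the 15 largest rises and falls measured on all 6 arrays and the 8 largest bounds each way, all among called genes whose pools did not overlap. To these were added the 5 largest changes per list, called or not, and a fixed panel, and the text takes examples from all of them. ADIPOQ, CDKN2C, COX7A2, EIF1AY, ENO1, ENO3, GAPDH, HK1, LDHA, NEB, PFKL, RRM2, SLC2A3 and TNNI1 were added after their values were seen. On simulated data with 200 changed probe sets of 23999, the German Landrace test recovered 21.5% of 2-fold and 54% of 4-fold changes, and the interaction 23% and 52%. The German Landrace test also called 25 and 38 unchanged probe sets, and the interaction 57 and 89, so false calls were not rare. Far fewer probe sets were changed there than were called in the data, so these figures may not carry over. Python 3.11.15 and matplotlib 3.10.9 drew the figures. No probe, promoter or protein sequence was used here.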

Additional observations from a re-analysis of the deposited data

Results flagged for a closer look

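Beside EIF1AY, limma's interaction test called a difference between the breeds in the change of adult against 91 dpc muscle for 2 of the named genes. In both cases the German Landrace adult values were at background. The fitted German Landrace minus Pietrain difference in log2 change was -3.48 ± 0.28 for MYBL2 (adjusted p = 0.00285), with a fitted change of -7.02 in German Landrace and a change of -3.54 in Pietrain. MYBL2 was at background in all 3 German Landrace adult pools, where its fall is a bound of at least 88.7-fold, and above background in all 3 Pietrain adult pools, so the size of the difference is not exact. For KDR the fitted difference was -2.71 ± 0.43 (adjusted p = 0.044), with fitted changes of -3.94 in German Landrace and -1.22 in Pietrain. KDR was at background in the adult pools of both breeds, so both changes are set by the background level and the difference in change has no measured size.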

How the results depend on the processing

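The 8446 calls were 6759 to 7700 with 1 pool left out, 6856 with pool letter as a replicate block, 6446 with the GAPDH covariate over 24 arrays and 10890 with all 24 arrays in 1 fit. They were 7993 among probe sets with a mean above 5.5 in either group, an alternative chosen after seeing the data. Deviations of pools with the same letter correlated only weakly, at 0.0104, 0.0566 and 0.0407 for a, b and c. The best 91 dpc partner of each adult pool still had its letter, as did the best adult partner of 91 dpc pools b and c. Whether pool letters pair the samples is therefore not settled. The breed difference was less stable, at 638 probe sets with all 24 arrays in 1 fit, 1 with the replicate block and 37 to 151 with 1 pool left out, against 80. The count was 37, 38, 42 and 44 without the 91 dpc pools a and b of German Landrace and of Pietrain, and 141, 122, 144 and 151 without German Landrace 91 dpc pool c, German Landrace adult pool c and Pietrain adult pools a and b. Changes that turned sign were not called in the main test: ADIPOQ (-1.31) and COL3A1 (-1.13) with the GAPDH covariate, CKM (-0.12), GAPDH (-0.0918) and TNNT3 (-0.0305) when scaled to hybridisation controls, and IGF1 (-0.39) as a mean over probe sets. The cause was not tested.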
